A study of Homo sapiens with 2 samples.

Results

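The 7 caspase genes CASP1, CASP2, CASP4, CASP6, CASP8, CASP9 and CASP10 were examined for chromatin recovered with a GATA1 antibody in Meg-01 cells, a human megakaryocytic leukemia line. They were chosen by gene symbol, as every gene-annotated probe of these 7 symbols on a promoter tiling microarray set. They were 7 of 17279 genes named on the arrays, and all 7 were among the 17054 genes with at least 1 window of adjacent probes. In the ChIP-on-chip assay, DNA that is bound by a protein in fixed cells is recovered with an antibody and hybridized to tiled probes beside a control. Here the GATA1 (C-20) antibody, which is directed to the C-terminus of the protein, gave the immunoprecipitated DNA (IP, labeled with Cy5). Normal goat IgG gave the control (Cy3) from the same chromatin of non-treated cells. The set had 2 arrays, chIP1 and chIP2, which held different probes and stood for 1 condition of 1 cell line, so each probe was hybridized 1 time, without replicates or a dye swap. No test between samples was possible, a dye effect and an antibody effect cannot be told apart, and every value is a description of these 2 hybridizations.

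Caspases are cysteine proteases that are made as inactive precursors. In apoptosis, initiator caspases are activated on adaptor platforms and then cleave executioner caspases, which cut cellular proteins. CASP8 and CASP10 act below death receptors, CASP9 acts below cytochrome c release from mitochondria, CASP2 is activated on a separate platform that responds to cell damage, and CASP6 is an executioner that cleaves nuclear lamins. CASP1 and CASP4 are inflammatory caspases, CASP1 as the protease of canonical inflammasomes and CASP4 as a sensor of bacterial lipopolysaccharide in the cytosol. Limited caspase activity is also known in platelet formation by megakaryocytes, and GATA1 is a zinc finger factor that binds GATA letters in erythroid and megakaryocytic genes.

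To show what the promoters of these genes offer to such a factor, the 250 bases before the start were read from RefSeq (GRCh38.p14) for the members with an entry. There were 9 promoters of 5 genes, and CASP1 and CASP10 had no entry in the table used. Each promoter of 300 bases (250 before and 50 after the start) was searched on both strands for 4 strings of letters, namely AGATAA and the related string AGATAG, and the string TGATAA with its related string TGATAG, which differ only in their first and last letters and may share letters with each other. Of 35116 RefSeq promoters of the same length, 25% held at least 1 of them, and 2 of the 9 caspase promoters did. These were the CASP4 promoter and the first of 3 CASP8 promoters. The upstream bases of these are printed with the strings in capitals, and the first CASP2 promoter and the first CASP9 promoter are printed as examples that hold none, CASP2 because its probes read highest on average and CASP9 because its probes read lowest.
CASP4, chr11:104968575-104968824, minus strand: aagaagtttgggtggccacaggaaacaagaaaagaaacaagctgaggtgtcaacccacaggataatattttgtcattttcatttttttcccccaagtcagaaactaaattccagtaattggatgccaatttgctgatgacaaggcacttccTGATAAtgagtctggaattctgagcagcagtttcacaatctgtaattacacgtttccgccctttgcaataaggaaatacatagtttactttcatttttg
CASP8, first promoter, chr2:201233213-201233462, plus strand: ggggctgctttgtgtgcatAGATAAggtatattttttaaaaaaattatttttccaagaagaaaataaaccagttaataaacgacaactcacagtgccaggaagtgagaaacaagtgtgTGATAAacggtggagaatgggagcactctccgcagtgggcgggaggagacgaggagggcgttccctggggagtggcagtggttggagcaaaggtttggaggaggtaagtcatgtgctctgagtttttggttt
CASP2, first promoter, chr7:143288101-143288350, plus strand: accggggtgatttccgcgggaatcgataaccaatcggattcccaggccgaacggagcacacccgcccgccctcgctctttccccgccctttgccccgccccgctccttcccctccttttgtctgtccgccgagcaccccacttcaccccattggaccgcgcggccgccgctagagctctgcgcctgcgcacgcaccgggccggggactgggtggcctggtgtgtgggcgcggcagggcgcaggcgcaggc
CASP9, first promoter, chr1:15524791-15525040, minus strand: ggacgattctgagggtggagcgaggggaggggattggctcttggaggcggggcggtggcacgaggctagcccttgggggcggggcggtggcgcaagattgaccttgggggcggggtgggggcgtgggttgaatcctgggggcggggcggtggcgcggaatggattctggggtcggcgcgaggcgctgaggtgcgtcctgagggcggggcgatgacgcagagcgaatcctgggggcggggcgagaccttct
The CASP4 string, TGATAA, began at -99 bp from the RefSeq start. In CASP8, AGATAA began at -231 bp and TGATAA at -132 bp. The strings lay in promoters of low GC content, 39.7% for CASP4 and 46.3% for CASP8, against a median of 58.7% over all promoters. The printed CASP2 and CASP9 promoters, both rich in GC, had 71.3% each. The CASP2 promoter held the letters GATA outside the 4 strings, and the CASP9 promoter held neither GATA nor TATC. The array coordinates below are in the build of the array annotation, which was not given in the sources used here, so that no RefSeq position was placed on them. The array annotation held 3 CASP8 starts, with the later 2 at 24590 and 27060 bp beyond the first, and RefSeq held 3 starts with spacings of 24572 and 27073 bp. Both CASP2 starts were 1290 bp apart on the array and 1237 bp apart in RefSeq.

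For each probe the log2 of IP over IgG signal was taken with the array median at 0. A window was the mean of 3 adjacent probes, each neighbor within 1000 bp of the center, and a window of at least 1 (2-fold) was counted on the IP side and a window of -1 or less on the IgG side. The 7 genes had 145 probes, from 6 for CASP4 to 51 for CASP8, and all 145 passed the filters, were well above background in both channels and were unsaturated. At 3 of the 7 members, CASP1, CASP2 and CASP10, a window reached the IP side, beside 57.1% of all genes. IgG-side windows were found at CASP1, CASP8 and CASP10, again 3 of 7, beside 52.9% of all genes. CASP1 and CASP10 had windows of both kinds (31.3% of all genes), and CASP4, CASP6 and CASP9 had neither (21.3% of all genes). Over single windows, 4 of the 116 caspase windows were on the IP side, beside 7.62% of all windows, and 6 were on the IgG side, beside 9.65%. The median of the highest windows was 0.97 for the 7 members and 1.09 for all genes, and that of the lowest windows was -0.80 and -1.05. The members had a median of 15 windows and all genes of 23. The part of window number in these medians was not tested.

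**Figure D1:**
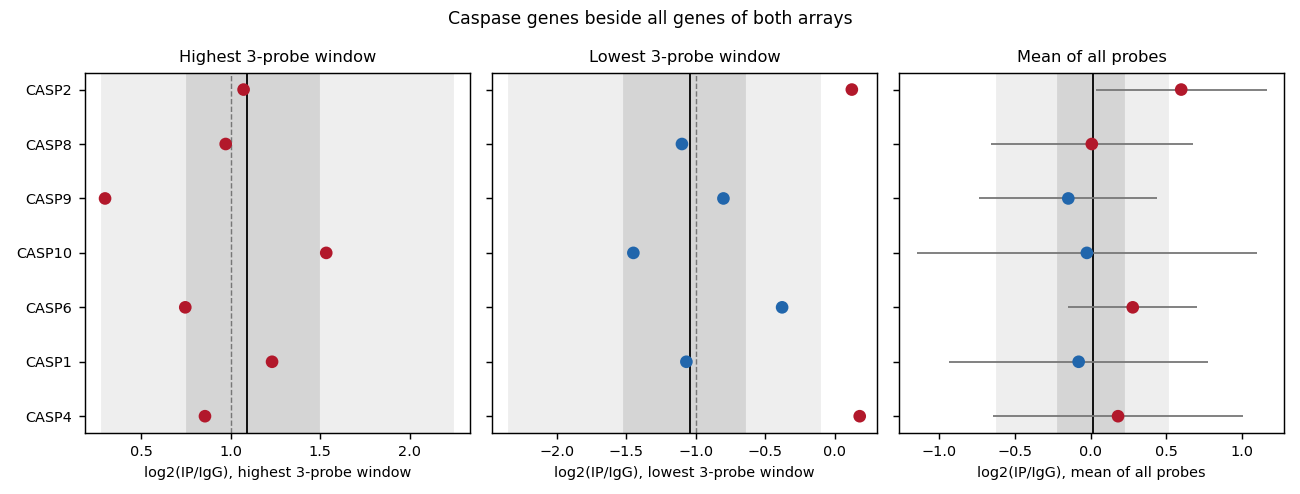
Each panel shows the 7 caspase genes (points) on the log2(IP/IgG) scale beside all genes of both arrays, with the median (black line), the middle range between the quartiles (dark grey) and the range from the 5th to the 95th percentile (light grey). The dashed lines mark the 2-fold limits, and the bars in the right panel are the SD over the probes of a gene. CASP10 had the highest window (1.53) and CASP9 the lowest of the highest windows (0.30), and the CASP2 mean (0.60) lay above the 95th percentile of all genes.

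Near the annotated starts most caspase probes were above 0, as were most probes of the arrays. Distances here are to the nearest start of any gene or RefSeq transcript in the array annotation. Of the 39 caspase probes within 500 bp of such a start, 29 (74.4%) were above 0, with a median log2 ratio of 0.39, beside 68.1% and 0.26 for all probes at that distance. Of these 39 probes, 2 were CASP9 probes near the start of DNAJC16. A wider gap lay from -2000 to -4000 bp, where 2 of 16 caspase probes (12.5%) were above 0 with a median of -0.82, beside 41.7% and -0.19 for all probes. Of these 16 probes 8 belonged to CASP10, all below 0, so that the value at this position leans on that gene. Of the 35 caspase windows centered within 500 bp of the nearest start, 2 were on the IP side (CASP2 and CASP10), beside 10.4% of all windows so placed, and none was on the IgG side.

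**Figure D2:**
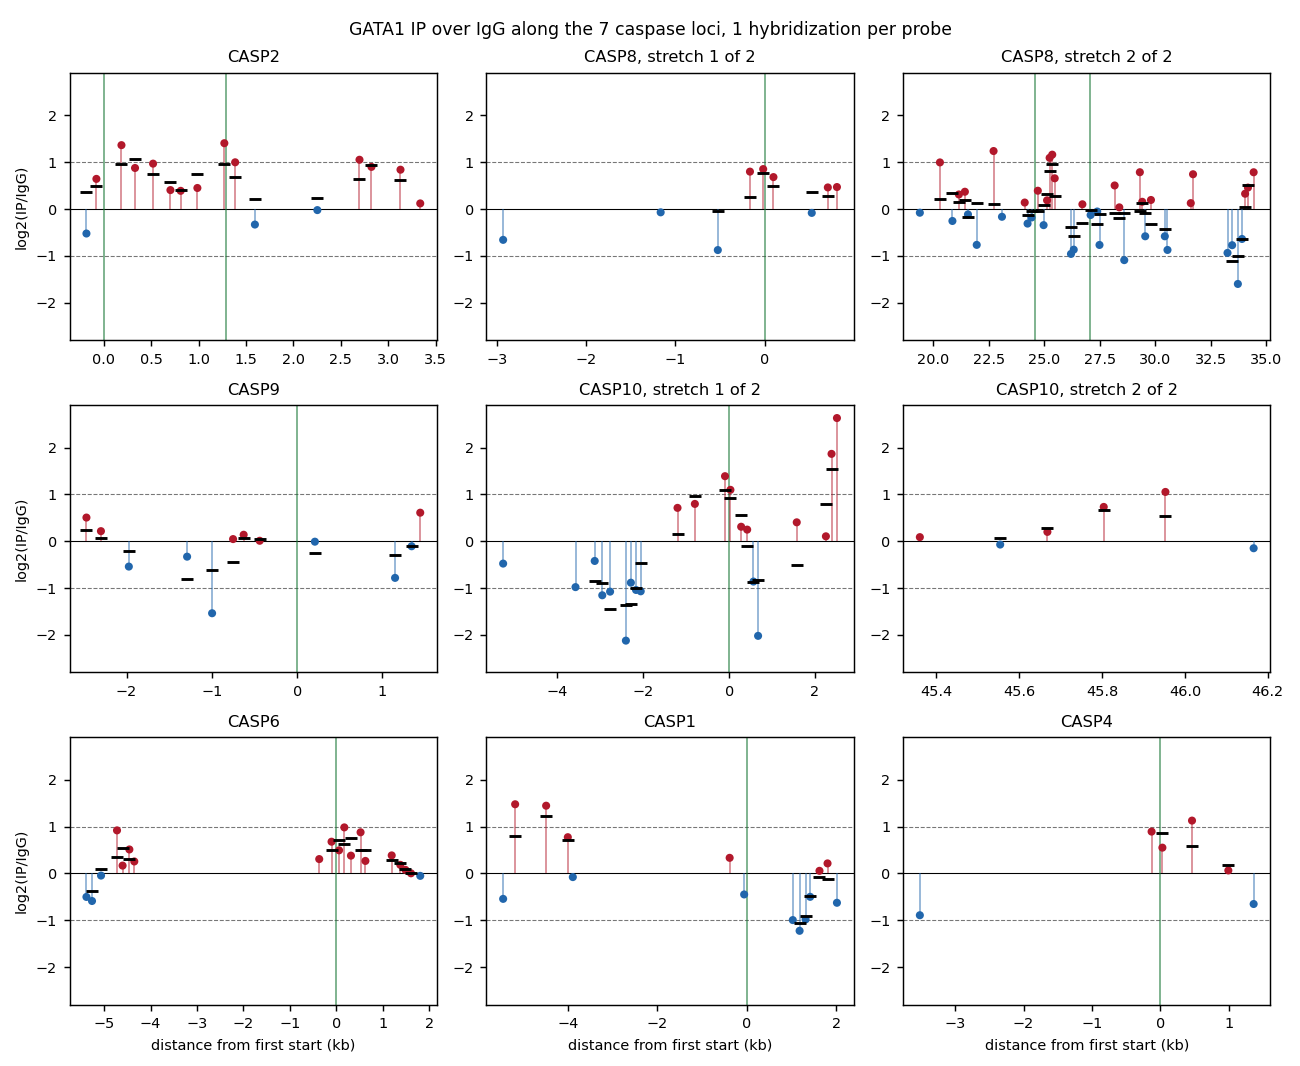
Each panel shows the probes of a caspase gene (points, red above 0 and blue below) as log2(IP/IgG) against the distance in kb from the first annotated start, in the direction of transcription. Black dashes are 3-probe window means at the center probe, green lines are annotated starts, and grey dashed lines mark the 2-fold limits. CASP10 showed values above 0 at the start with values below 0 in the run from -2000 to -4000 bp, CASP2 was above 0 over most of its length, and CASP9 stayed near 0 at its start.

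Among the initiator caspases of the death receptors, CASP10 had the widest range of values. It lay at chr2:201868068-201919556 on chIP1 with 27 probes in 2 stretches, with a mean of -0.03 (SD 1.12 over probes). Its highest window, 1.53, covered chr2:201875585-201875900 and was centered at 2384 bp inside the gene, at percentile 75.4 of the highest windows on its array. The 3 probes read 0.11, 1.86 and 2.63, with IP signals of 1446, 1321 and 1292 and IgG signals of 1346, 363 and 209. The IP signal was thus nearly even across the window while the IgG signal was lower at the last 2 probes than at the first, and this window lay at the edge of the tiled stretch. A second IP-side window, 1.09, spanned the start itself (chr2:201872534-201873419, centered at -96 bp), with probes of 0.80, 1.39 and 1.10. These were bright probes, each at or above percentile 85.1 of intensity, and all 4 probes within 500 bp of the start were above 0, with a mean of 0.76.

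Upstream of that start the sign turned. All 8 CASP10 probes between -2000 and -4000 bp were below 0, from -2.12 to -0.42 with a mean of -1.09. They gave the 3 IgG-side windows of the gene, -1.45, -1.36 and -1.35, of which the lowest covered chr2:201870377-201870984. Its 3 probes read -1.15, -1.08 and -2.12, with IgG signals of 1881, 1976 and 1540 and IP signals of 844, 936 and 353. Neighboring probes at this spacing read overlapping fragments and are not independent of each other.

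CASP8, the initiator that binds the adaptor FADD at death receptors, lay next to CASP10, with 1236 bp between the probes that carry each symbol, and its first 5 probes, up to the first start, were also assigned to a CASP10 transcript. Its 51 probes (chr2:201920733-201958147) averaged 0.0067 (SD 0.67), at percentile 48.8 of all genes on the array. The 3 starts read differently. At the first start, whose RefSeq promoter held both GATA strings, the probes at -161, -12 and 96 bp read 0.80, 0.85 and 0.68, and their window was 0.78. At the second start the 5 probes within 500 bp read 0.14, -0.31, -0.18, 0.39 and -0.34. The 4 at the third start read 0.10, -0.13, -0.05 and -0.77. The probes were thus above 0 together at the first start only among these 3, and no window there reached 1. The highest CASP8 window, 0.97 (chr2:201948906-201949193, probes 1.09, 1.16 and 0.66), fell just under the limit and lay 769 bp inside the second start. This was at percentile 38.3 of the highest windows on the array. Farther inside the gene, 2 overlapping windows were on the IgG side, centered at 6403 and 6661 bp from the third start, and the lower of them was -1.10 (chr2:201956913-201957438). Their probes were dim, at percentile 19.9 to 29.9 of intensity for the lower window, with IP signals of 262, 336 and 294 and IgG signals of 501, 575 and 892.

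CASP9, which is activated on the APAF1 apoptosome, had the lowest of the highest windows of the 7 genes. That window was 0.30, at percentile 4.44 of its array, and lay away from the CASP9 start at chr1:15598548-15598858. Its first probe (0.51) was annotated to the promoter that CASP9 shares with the divergent gene DNAJC16, and the other 2 (-0.0058 and 0.39) were DNAJC16 probes inside that gene. The 12 CASP9 probes (chr1:15594635-15598592) averaged -0.15 (SD 0.59). The nearest probes on each side of the start, at -443 and 204 bp, read 0.01 and -0.01. The IP and IgG signals there were 6216 and 6183 at the first and 1099 and 1108 at the second, so that both channels were nearly equal on a bright and on a moderate probe. Tiling was sparse at this start, with 2 probes within 500 bp. The lowest window, -0.80 (chr1:15597075-15598096), rested mostly on 1 dim probe of -1.54, and the others read -0.33 and -0.54.

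CASP2 had the highest mean of the 7 genes. Its 16 probes (chr7:142502037-142505604) averaged 0.60 (SD 0.57), at percentile 97.2 of the gene means on chIP1, and 13 of them were above 0. Of these probes 9 lay within 500 bp of a CASP2 start, where probes of all genes also read higher. The CASP2 mean was 0.48 once the median of all probes at the same distance was subtracted. All 16 of its windows were above 0, and the lowest, 0.12, was at percentile 98.1 of the lowest windows (it became -0.02 once the median of all probes at the same distance from a start was subtracted). Of the 3 probes of that lowest window, 2 (-0.07 and 0.95) lay before the first CASP2 probe. The lowest window centered on a CASP2 probe was 0.22, at 308 bp from the downstream start. The single IP-side window was 1.07 (chr7:142502406-142502783), centered 333 bp inside the upstream start and at -955 bp from the downstream start. Its probes read 1.37, 0.88 and 0.97, with IP signals of 2052, 2628 and 2592 and IgG signals of 798, 1432 and 1325, at percentile 65.2 to 79.5 of intensity. At the downstream start the probes at -14 and 99 bp read 1.41 and 1.00, and a probe at 308 bp read -0.33. Its highest window, by contrast, was at percentile 46.2 of the highest windows on its array. The gene FLJ90586, now TMEM139, lay 228 bp before the first CASP2 probe on the array, shared a window with CASP2, and reached 1.94 in a window of its own.

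The executioner CASP6 read above 0 around its start without reaching 2-fold. All 5 probes within 500 bp of the start were above 0, from 0.30 to 0.98 with a mean of 0.57, and 15 of its 19 probes (chr4:110980397-110987639) were above 0. The highest window, 0.75 (chr4:110981684-110982082, centered at 316 bp), had probes of 0.88, 0.38 and 0.98 and was at percentile 21.9 of its array. Inside the gene, the probes at 524, 627 and 1193 bp read 0.88, 0.27 and 0.38, and those from 1378 to 1807 bp lay between -0.05 and 0.18. The gene mean of 0.28 (SD 0.43) was at percentile 80.5. The lowest window, -0.38 at -5257 bp, lay in a stretch that the array also assigned to PLA2G12A.

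The inflammatory caspases CASP1 and CASP4 were both on chIP2, with CASP5 between them on chromosome 11. CASP1 (14 probes, chr11:104409028-104416541) averaged -0.08 (SD 0.86), with a mean of 0.42 over the probes upstream and -0.58 over those inside the gene. Its IP-side window, 1.23, was far from the start, at -4485 bp (chr11:104415039-104416274), and had probes of 0.77, 1.44 and 1.47. The IP signals were 1668, 493 and 197 and the IgG signals 972, 180 and 70.6, so that the probes with the higher ratios were also the dimmer ones, down to percentile 5.03 of intensity. With another background correction (normexp) the highest CASP1 window was 0.48. The IgG-side window, -1.07 (chr11:104409728-104410073), was centered at 1175 bp inside the gene, with probes from -1.23 to -0.98. At the start itself, the probes at -387 and -62 bp read 0.33 and -0.45.

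CASP4 had the fewest probes, 6 (chr11:104343148-104348088), and 3 windows. All 3 windows were above 0, as were those of CASP2. The lowest, 0.18, was at percentile 98.2 of the lowest windows on its array, and the part of window number in such percentiles was not tested. At -134, -26 and 406 bp from its start the probes read 0.89, 0.55 and 1.13, with IP signals of 2361, 2058 and 2894 and IgG signals of 1267, 1401 and 1320. Their window (chr11:104344050-104344699) was 0.86, at percentile 34.1 of its array, and all 3 were bright (percentile 75.6 to 79.7). It was the start with the highest mean among the 7 genes, and its RefSeq promoter is the one with TGATAA at -99 bp. The other 3 CASP4 probes, farther from the start, read 0.06, -0.65 and -0.89.

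By the distance to the nearest start of the gene itself, the means over the probes within 500 bp ran from CASP4 (0.86) through CASP10 (0.76), CASP2 (0.59), CASP6 (0.57) and CASP8 (0.10) to CASP9 (0.00018) and CASP1 (-0.06). The CASP2 and CASP8 means pooled probes of more than 1 start. Of the 12 CASP8 probes, those at the first start read 0.80, 0.85 and 0.68, and those at the later starts ran from -0.77 to 0.39. The order has no replicate error. By the error model of the scanner software, which covers 1 array only, a single caspase probe had an error of 0.20 to 0.67 on the log2 scale, with a median of 0.22. This error holds for single probes and measures neither the error of these means nor the spread between probes. It cannot rank the steps in this order. At the CASP4 start and the first CASP8 start, whose RefSeq promoters held the strings, the probes within 500 bp were above 0. Of the genes without such a string, CASP6 had 5 of 5 such probes above 0, CASP2 7 of 9 and CASP9 1 of 2. Over all probes within 500 bp of a start, 68.1% were above 0. A link between the strings and the probe values was not tested.

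Other genes of the caspase pathway were read from a list of 65 symbols in 6 roles, of which 49 were on the arrays and 48 had a window. IP-side windows were found at 22 of the 48, beside the 57.1% of all genes, and IgG-side windows at 26, beside 52.9%. The median highest window was 0.94, against 0.97 for the 7 members and 1.09 for all genes. Of 11 substrates, 7 had an IP-side window, of 4 mitochondrial genes 3, of 9 death receptors and ligands 4, of 11 adaptors 5, of 2 other caspases 1, and of 11 inhibitors 2. The inhibitors had IgG-side windows at 10 of 11. With so few genes a role and 1 hybridization, these counts are descriptions of the lists and no role was set apart from the rest.

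Among the companion genes, 4 passed 2 in their highest window, and CFLAR was the one with bright probes. CFLAR encodes the CASP8-like inhibitor c-FLIP and lay 45611 bp from CASP10 on the arrays. Its window of 2.03 (chr2:201815816-201816259, 9565 bp inside the gene) had probes from 1.93 to 2.08 at percentile 86.4 to 96.8 of intensity, and 7 of its 40 windows were on the IP side. The other 3 rested on dim probes. CIAS1, an older name of the inflammasome sensor NLRP3, reached 2.60 at percentile 7.26 to 25.4 of intensity, the death receptor FAS 2.24 at -4018 bp with probes from percentile 2.38 to 39.0, and CASP5 2.05 at 188 bp with probes from percentile 6.47 to 37.9. CASP5 also had 5 windows on the IgG side, down to -2.31. The lowest of the highest windows were those of the DNA sensor AIM2 (0.33), the inhibitor AVEN (0.34), the decoy receptors TNFRSF10C (0.35) and TNFRSF10D (0.41), the ligand FASLG (0.38) and the substrate kinase ROCK1 (0.46).

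**Figure D3:**
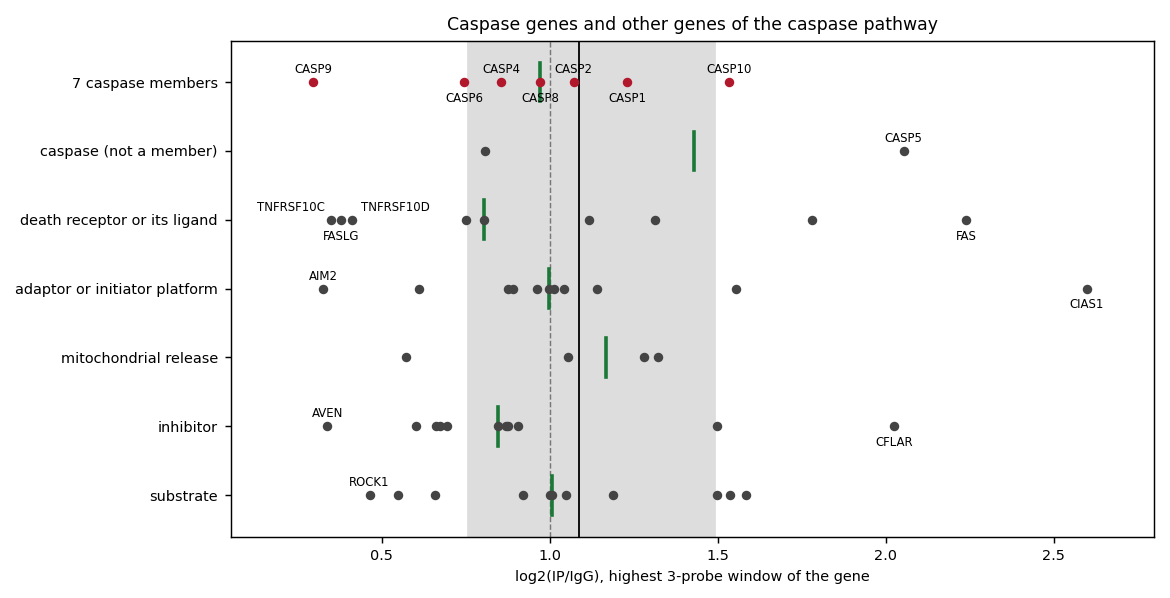
The highest 3-probe window of each gene, as log2(IP/IgG), is shown for the 7 caspase members (red) and for 48 other genes of the pathway by role (dark points). Green bars are the medians of each row, the grey band spans the quartiles of all genes with their median as a black line, and the dashed line marks 2-fold. The members ran from 0.30 to 1.53, and CIAS1, FAS, CASP5 and CFLAR were the companion genes above 2.

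The member counts depended on the size of the window and on the limit. With windows of 5 probes no member reached the IP side, beside 34.6% of all genes, and CASP2 and CASP10 were then highest at 0.85 and 0.86. With single probes 5 members had a value of at least 1 (CASP1, CASP2, CASP4, CASP8 and CASP10), beside 86.1% of all genes. CASP2 and CASP10 stayed above 1 after normexp correction (1.04 and 1.13), whereas CASP1 did not, and the share of all genes with an IP-side window was then 33.1%. No member had an IgG-side window after it, beside 23.9% of all genes.

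**Figure D4:**
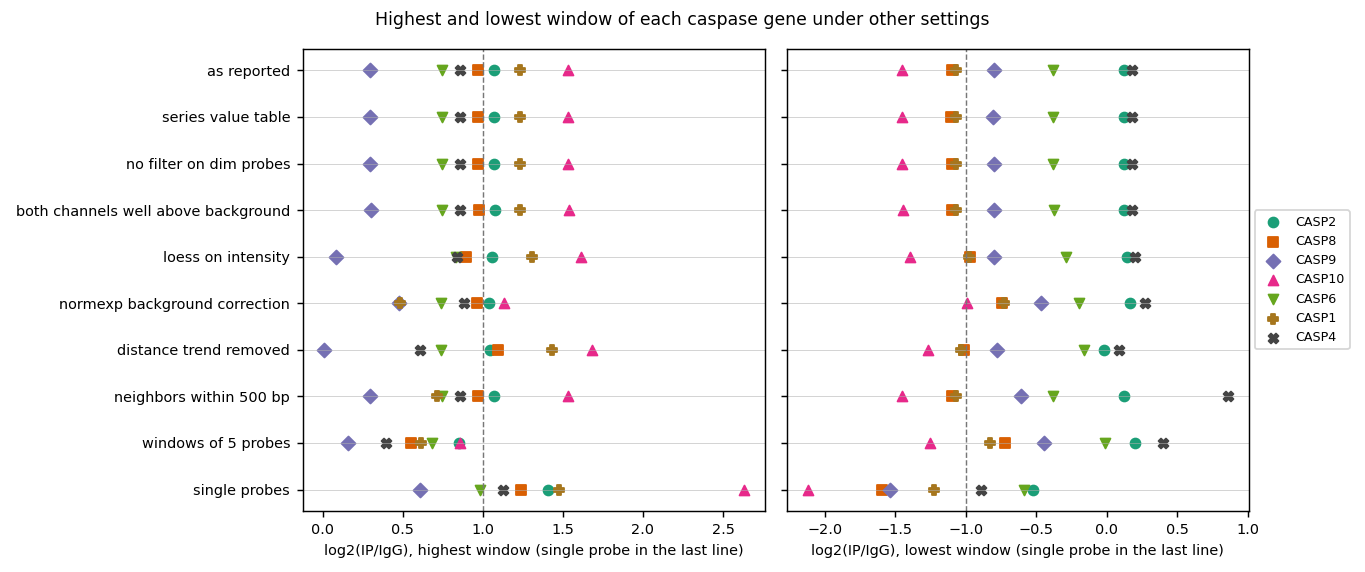
Each line is a way of processing the arrays, and each symbol is the highest window (left) or the lowest window (right) of a caspase gene as log2(IP/IgG), with the 2-fold limit dashed. The highest CASP1 window moved from 1.23 to 0.48 with normexp correction and to 0.71 with neighbors within 500 bp, and CASP10 had the highest value of the 7 genes in every setting shown.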

How the data were processed

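Two-color Agilent promoter arrays of GATA1-precipitated DNA (Cy5) against normal goat IgG (Cy3) from Meg-01 cells were used. Per the file headers, the authors deposited scanner output of Feature Extraction 9.5.3.1, whose processed signal intensity per channel is background-subtracted, detrended and linearly dye-normalized. The deposited log10 ratios and their error come from the same software, and the deposited value table held those log10 ratios unchanged. The study's own normalization and peak calls, made in other software per its methods, were not used here.

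From the processed intensities log2(IP/IgG) was computed per probe and the median of each array was set to 0. Control spots and non-uniform spots were removed, as were probes without a channel well above background, but not saturated ones. This left 237004 of 237210 probes on chIP1 and 236864 of 237201 on chIP2, with median raw IP intensities of 543 and 544 and an SD of the log2 ratio of 0.97 on each array. Intensity, not read depth, limits precision here. Windows were means of 3 adjacent probes with neighbors within 1000 bp by start coordinate, and they were called at 2-fold. Genes were taken from the array annotation, with the distance it gives. A window counted for each gene with a probe in it. Percentiles are among the genes, or for intensity the probes, of the same array. Window calling was tested on simulated data. The groups were the IP and IgG channels of each array, and no test was run because each probe had 1 hybridization. The companion genes named were those with a highest window of at least 2, at most 6, and the 6 lowest without an IP-side window. The members and lists were chosen with earlier results of these data known, and some genes of the list are not reported here.

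Python 3.11.15 (numpy 2.4.6, pandas 2.3.3, matplotlib 3.10.9) and R 4.3.3 with limma 3.58.1 were used. The 11 alternatives were normexp background correction (offset 50), loess on intensity (span 0.3), the deposited value table, 2 other filters on dim probes, single probes, windows of 5 probes, neighbors within 500 bp, removal of the distance trend (in steps of 500 bp out to 6000 bp), and limits of 1.5-fold and 3-fold.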

Additional observations from a re-analysis of the deposited data

How the results depend on the processing

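Members with an IP-side window numbered 3, and became 5 with single probes, 0 with windows of 5 probes, 6 at a limit of 1.5-fold and 0 at 3-fold. All genes gave 86.1%, 34.6%, 85% and 20.6% under these settings, against 57.1%. Members with an IgG-side window, also 3, became 0 with normexp, 1 with loess, 1 with windows of 5 probes and 0 at 3-fold, beside 23.9%, 49.9%, 34.3% and 22.3% of all genes. Companion genes with an IP-side window, 22 as reported, became 12 with normexp (33.1% of all genes), 43 with single probes, 11 with windows of 5 probes, 40 at 1.5-fold and 5 at 3-fold. The median highest window of the members, 0.97 beside 1.09 for all genes, passed the limit with single probes (1.24) and with the distance trend removed (1.05). The medians of all genes were then 1.73 and 1.07. With normexp the members had 0.88 and all genes 0.83, so that the order of these medians depended on the setting. The causes were not tested, except that a stricter or looser limit and a longer or shorter window change the counts by construction.

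The alternatives that kept the 2-fold limit gave 126 highest and lowest member values, and the 1.5-fold and 3-fold limits were left out of this count. Of the 126, 110 kept their side of the limit, 12 no longer passed it, 4 newly passed it, and none that passed it changed sign. The highest CASP1 window was 0.48 with normexp and 0.71 with neighbors within 500 bp. CASP2 and CASP10 lost theirs with windows of 5 probes (0.85 and 0.86), and CASP8 passed with the distance trend removed (1.10). The lowest CASP10 window was -0.99 with normexp and -1.26 with windows of 5 probes. Those of CASP1 and CASP8 were -0.98 and -0.97 with loess. They were farther from the limit with normexp (-0.73 and -0.75) and with windows of 5 probes (-0.83 and -0.72). No paired analysis was possible because each probe was hybridized 1 time, and no replicate could be left out for the same reason.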
